A study of Homo sapiens with 12 samples.

Results

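The comparison of HCP5-silenced with control KYSE510 cells drew on 6 ATAC-seq libraries, 3 of each kind, out of 12 libraries in the series. KYSE510 is an established human oesophageal squamous carcinoma line, grown here in RPMI-1640 medium with fetal bovine serum. The control group was labelled only as control and the other only as HCP5 silence, so the silencing agent, the type of control and any shared vector are not given in the sources used here. The labels do not say whether the 3 libraries of a group came from separate cultures, and the p-values then measure only the spread between these libraries, which may be technical. The members of the comparison were the peaks of height 3 or more on the 22 autosomes, merged over the 6 libraries wherever they overlapped by at least 1 bp.

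ATAC-seq uses a transposase that cuts into accessible DNA, so a peak marks a stretch that was open in cells of the culture. Open chromatin gathers at gene starts, called promoters, and at distal elements such as enhancers, which can act on genes far away. HCP5 is a long non-coding RNA gene inside the major histocompatibility complex. The series title ties HCP5 to the transcription factor c-Myc and to UTP3, a protein of the small subunit processome that builds ribosomes, and to the restraint of apoptosis. MYC itself lies in a long gene-poor stretch of chromosome 8 that holds many enhancers and the non-coding gene PVT1.

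The merged set held 251400 regions, of which 45090 (17.9%) had a peak in all 6 libraries and 129581 (51.5%) had one in a single library. Control libraries had 101552 to 114555 peaks of height 3 or more and silenced libraries had 105795 to 119939. The sequencing depth is unknown, because the tables give peak heights and no read totals. A stand-in for relative depth, the most common background implied by the peaks' heights and fold enrichments, ran from 0.180 to 0.217 height units in control and from 0.180 to 0.216 in silenced libraries. Log2 heights correlated across regions at 0.810 to 0.823 between control libraries, 0.813 to 0.818 between silenced libraries and 0.778 to 0.815 between groups. Promoter regions present in all 6 libraries were found for 14 of 20 squamous epithelial marker genes, against 1 of 10 for T and NK cells, 0 of 8 for B cells, 4 of 10 for myeloid cells, 2 of 10 for fibroblasts, 1 of 10 for endothelium, 3 of 10 for neurons and 1 of 10 for hepatocytes. The summed level of the squamous markers was 99.3 to 106 in control and 101 to 108 in silenced libraries, in units of each library's median height.

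Of the genes named in the title, HCP5, UTP3 and MYC each had a region at their start in every library, and none of these regions passed the test. The start sequences of HCP5 and UTP3 are shown because a peak lay over each one, together with both annotated starts of the kinase gene MAP3K9, which held the one promoter region that did pass. The sequences are from RefSeq on GRCh38.p14, run from 250 bases before to 50 bases after the start, and are written along the gene. The capitals mark matches, on either strand, to the GC box, the CCAAT box or the ETS motif.
HCP5, chr6:31462930-31463229, plus strand: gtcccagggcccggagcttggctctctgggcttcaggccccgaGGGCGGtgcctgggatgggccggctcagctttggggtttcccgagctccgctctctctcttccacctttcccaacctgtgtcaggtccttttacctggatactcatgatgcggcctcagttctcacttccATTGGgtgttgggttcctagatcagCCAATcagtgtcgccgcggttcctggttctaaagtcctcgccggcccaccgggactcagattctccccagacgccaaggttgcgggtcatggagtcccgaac
UTP3, chr4:70688282-70688581, plus strand: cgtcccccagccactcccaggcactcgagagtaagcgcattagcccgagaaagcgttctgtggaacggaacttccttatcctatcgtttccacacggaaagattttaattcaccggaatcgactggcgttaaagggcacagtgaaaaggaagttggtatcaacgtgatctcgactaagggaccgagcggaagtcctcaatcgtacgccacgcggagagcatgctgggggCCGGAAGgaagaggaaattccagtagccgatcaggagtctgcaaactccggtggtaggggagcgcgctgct
MAP3K9, upstream start, chr14:70809464-70809763, minus strand: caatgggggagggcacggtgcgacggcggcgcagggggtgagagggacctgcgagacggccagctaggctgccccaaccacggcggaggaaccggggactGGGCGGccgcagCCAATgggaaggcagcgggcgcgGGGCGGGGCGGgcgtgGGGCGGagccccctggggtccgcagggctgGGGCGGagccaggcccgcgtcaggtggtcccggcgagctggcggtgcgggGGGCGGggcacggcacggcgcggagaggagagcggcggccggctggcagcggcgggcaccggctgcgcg
MAP3K9, internal start, chr14:70783403-70783702, minus strand: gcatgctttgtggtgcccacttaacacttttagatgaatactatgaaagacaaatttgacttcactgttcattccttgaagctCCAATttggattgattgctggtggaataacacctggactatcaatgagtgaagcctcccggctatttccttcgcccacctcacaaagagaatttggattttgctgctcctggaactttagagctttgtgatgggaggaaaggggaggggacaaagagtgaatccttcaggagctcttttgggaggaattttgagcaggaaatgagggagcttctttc

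The upstream MAP3K9 start held 6 GC boxes and 1 CCAAT box, and some of its GC boxes adjoin. The internal start held 1 CCAAT box. HCP5 held 1 GC box and 2 CCAAT boxes, and UTP3 held 1 ETS motif. Among 33725 annotated start windows of the same length, 45.0% held a GC box (GGGCGG), 34.4% a CCAAT box (CCAAT) and 10.3% an ETS motif (CCGGAAG). The other motifs searched on both strands were AP-1 (TGANTCA, 7.67% of windows), the E-box bound by MYC (CACGTG, 7.18%), the CRE (TGACGTCA, 1.87%), the TATA box (TATAAA, 11.6%), NRF1 (1.23%) and YY1 (1.19%). A region present in all 6 libraries lay over 34.8% of the windows. The GC box occurred in 70.1% of these open windows and in 31.6% of the others. Promoter regions with an E-box in the window had a median log2 difference between silenced and control of -0.12 over 946 regions, and those without had -0.13 over 7168.

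The region over the HCP5 start, chr6:31462843-31463237, had heights of 16, 17 and 8 in the control libraries 1 to 3 and 23, 9 and 20 in the silenced ones. The 2 groups overlapped, and the log2 difference was 0.26 ± 0.32 (SE; adjusted p = 0.887). This peak does not check the silencing, because accessibility at the start is not the RNA level, which was not analysed here. At UTP3 the region chr4:70687840-70688728 had heights of 24, 12 and 18 in control and 18, 24 and 25 in silenced libraries, a log2 difference of 0.30 ± 0.27 (SE; adjusted p = 0.818). VAMP3, a vesicle fusion protein, had a low region at its start, chr1:7770664-7771695, with heights of 15, 8 and 7 in control and 8, 3 and 6 in silenced libraries. Its log2 difference was -0.90 ± 0.41 (SE; adjusted p = 0.532), and the groups overlapped.

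At MYC the groups overlapped at the start. The promoter region chr8:127735068-127736617 had heights of 177, 108 and 122 in control and 131, 124 and 149 in silenced libraries, and the log2 difference was -0.03 ± 0.15 (SE; adjusted p = 0.980). A second region, chr8:127742988-127743564, lies 0.037 kb past the end of the gene and was counted with the promoter class only because no strand was listed for genes of this chromosome. Its heights were 83, 56 and 82 in control and 109, 113 and 104 in silenced libraries. The groups did not overlap there, but the log2 difference of 0.53 ± 0.17 (SE) missed the threshold (adjusted p = 0.264).

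Across the 45090 regions present in all 6 libraries, 37 were higher and 7 lower after silencing at a Benjamini-Hochberg adjusted p under 0.05 in limma, where the height of each region was scaled by the library's median and taken as log2. The called regions were 0.0976% of those tested, 0.0821% higher and 0.0155% lower. At an unadjusted p under 0.05 there were 1934 higher and 1868 lower regions. In all 44 called regions the scaled heights of the 2 groups did not overlap, which held for 5.47% of all tested regions with silenced above and 6.18% with silenced below. The called regions were 26 distal ones (22 higher, 4 lower), 17 in gene bodies (14 higher, 3 lower) and 1 promoter region, which was higher. By mean height, the regions fell into 4 bins of nearly equal size, with 0 called in the lowest, then 4, then 17, and 23 in the tallest. The median standard error was 0.40 in the lowest bin and 0.25 in the tallest.

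The number called depended on the libraries and on how the spread was modelled. Without silenced replicate 2, 1 region, that in DTNA described next, was higher and 0 lower; without control replicate 2 the counts were 17 and 3, without silenced replicate 1 they were 18 and 3, and without control replicate 3 they were 26 and 1. With a spread that does not depend on height, 0 regions passed (smallest adjusted p = 0.167, 3638 regions at an unadjusted p under 0.05), and with the deposited fold enrichment in place of height 2 were higher and 0 lower. With fold enrichment the log2 difference was over 1.5 times smaller in 18 of the 44 regions. Over regions with a peak in at least 3 libraries, where an absent peak was set to a height of 2, 50 passed, among them 11 of the 44. The split was 13 higher and 0 lower without scaling, 32 and 1 with quantile normalisation and 140 and 1 with scaling to promoter regions, which moved the median of all regions up by 0.18. The 44 regions kept their direction in each of these fits that measured them. They were selected for large differences in these same libraries, so the kept direction is no independent check.

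**Figure D1:**
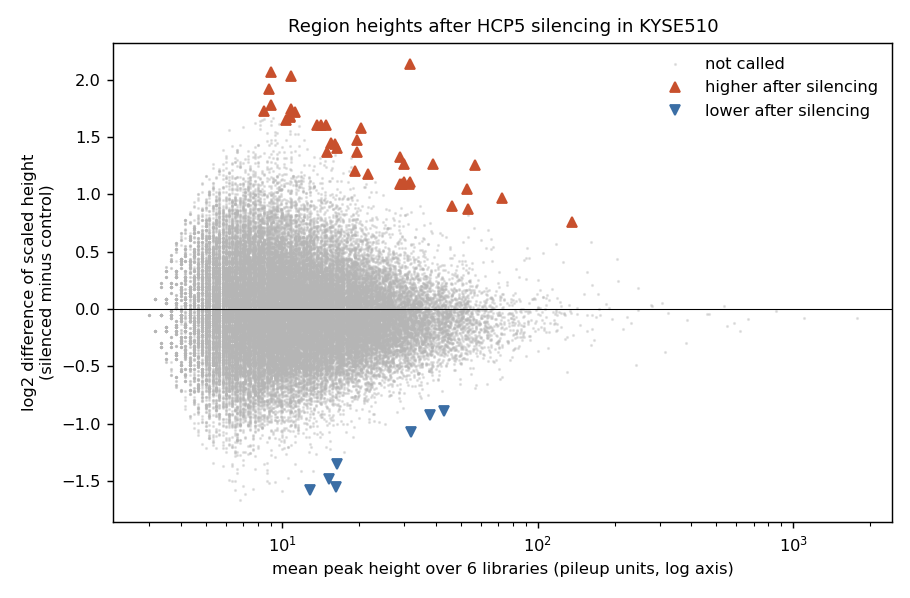
Each point is 1 of the 45090 regions present in all 6 libraries, with its mean height over the libraries on a log axis and its log2 difference of scaled height, silenced minus control, on the vertical axis. Upward triangles are the 37 regions called higher and downward triangles the 7 called lower, which lie at the edge of a cloud that narrows with height.

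The smallest p and the largest difference lay in DTNA, which encodes alpha-dystrobrevin, a protein of the dystrophin-associated complex. The region chr18:34697744-34698354 lies in the gene body, 11.9 kb from the nearest annotated DTNA start. The gene table used gives no exons, so exon or intron is not stated for any region. Its heights were 9, 16 and 10 in control and 47, 60 and 48 in silenced libraries. Every silenced library was far above every control library, and scaled height was 4.39-fold higher (log2 2.13 ± 0.25 SE, adjusted p = 9.6e-09). It passed the test with any single library left out and in 11 of 12 other fits, all but the one with a constant spread; with fold enrichment its log2 difference was 1.34. The other 15 DTNA regions present in all 6 libraries had log2 differences of -0.56 to 0.72 and none passed (smallest adjusted p = 0.421).

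A region 98.2 kb from the start of CAMK1G, a calcium- and calmodulin-dependent kinase, was the only other one to pass when fold enrichment replaced height. It lies at chr1:209485076-209485544, in no protein-coding gene, and had heights of 11, 11 and 8 in control and 30, 32 and 30 in silenced libraries. The silenced heights were nearly equal to each other and 2.99-fold above control after scaling (log2 1.58 ± 0.28 SE, adjusted p = 0.0018). On chromosome 11 a region 1189.9 kb from the nearest protein-coding start, that of RAG2, had heights of 18, 32 and 17 against 37, 72 and 57 (chr11:37788172-37788995; log2 1.27 ± 0.23 SE, adjusted p = 0.0024; log2 0.52 with fold enrichment). Silenced replicate 1 was close to control replicate 2 at that region before scaling.

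MAP3K9 encodes a mixed-lineage kinase that acts upstream of JNK. The called region, chr14:70782102-70782861, lies inside the gene, 0.591 kb from its internal start shown above, whose printed window it does not reach. Heights there were 32, 25 and 46 in control and 66, 72 and 76 in silenced libraries, and the 2 groups did not overlap (2.07-fold higher; log2 1.05 ± 0.20 SE, adjusted p = 0.0049). The call was lost without control replicate 2 or silenced replicate 2, and with fold enrichment the log2 difference was 0.31. The upstream MAP3K9 promoter, chr14:70809200-70810191, had heights of 122, 90 and 87 in control and 99, 78 and 97 in silenced libraries, which overlapped (log2 -0.17 ± 0.16 SE, adjusted p = 0.836). Of the remaining MAP3K9 regions, the one at chr14:70770371-70770902 had heights of 11, 16 and 21 against 25, 27 and 21 (adjusted p = 0.540). The last, at chr14:70754888-70756030, had 48, 38 and 46 against 25, 55 and 49 (adjusted p = 0.900). One more MAP3K9 peak was present in control libraries only, with heights of 20, 20 and 16, and lay 25.3 kb from the called region.

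Chromosome 8 held 10 of the 37 higher regions and 0 of the 7 lower ones. All 10 lay between 118 and 133 Mb, a segment set by the calls themselves, where 522 regions were tested and 1.92% were called, against 0.0976% of all regions. The rest of the chromosome had 0 called of 2008. Within 1 Mb of MYC 125 regions were tested, of which 4 were higher and 0 lower (3.20%). There 77 regions (61.6%) had a log2 difference above 0, against 45.9% of all regions. Averaged over these regions, log2 scaled height was higher in control replicate 3 than in silenced replicate 1, so the groups overlapped. Silenced replicate 2 had the highest average. In single regions the groups did not overlap in 24 with silenced above and in 8 with silenced below. Regions there were tall, with a median height of 38.5 against 10.2 over all regions, and their median standard error was 0.22 against 0.36. Their median log2 difference was 0.09, against -0.04 over all regions. The part of these taller peaks and smaller errors in the number called was not tested.

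The strongest of the 4 was chr8:127787681-127788475, 44.7 kb past the end of MYC. Its heights were 44, 26 and 28 in control and 96, 91 and 56 in silenced libraries (2.40-fold higher; log2 1.26 ± 0.20 SE, adjusted p = 2.3e-04). On the other side, 47.6 kb before MYC, chr8:127686931-127687791 had 41, 32 and 37 in control and 57, 73 and 79 in silenced libraries (log2 0.87 ± 0.19 SE, adjusted p = 0.0305). Together these regions flank a promoter whose own heights overlapped between the groups. The tallest called region of the genome, chr8:128322669-128323244, lies 580 kb past MYC and had heights of 97, 99 and 101 in control and 178, 182 and 161 in silenced libraries. It was 1.69-fold higher, the smallest difference called (log2 0.76 ± 0.15 SE, adjusted p = 0.0099; log2 0.29 with fold enrichment). The fourth, chr8:128369851-128370468, lies 627 kb past MYC, with heights of 24, 18 and 17 against 45, 45 and 39 (log2 1.09 ± 0.23 SE, adjusted p = 0.0169).

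**Figure D2:**
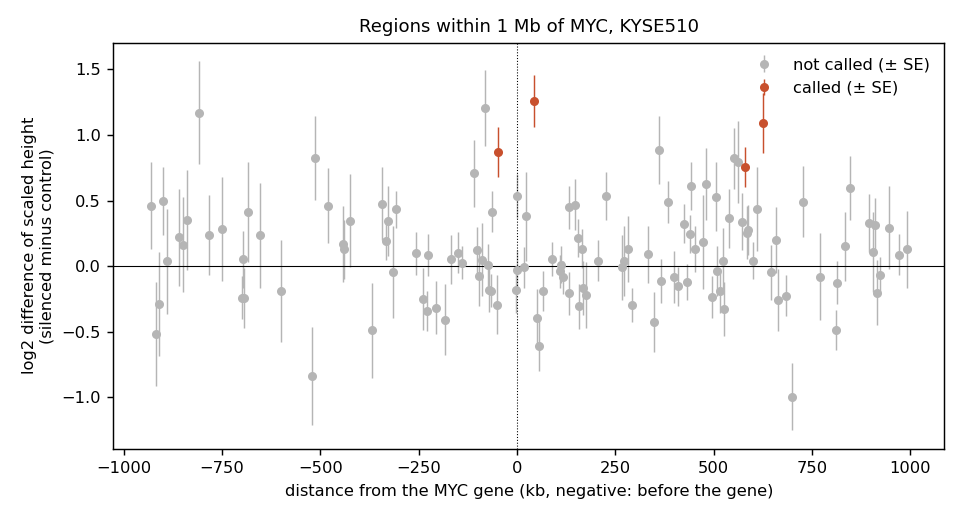
Each point is 1 of the 125 regions within 1 Mb of MYC, with its distance from the gene in kb and its log2 difference of scaled height, silenced minus control, with its standard error. The 4 called regions lie on both sides of the gene, while the region at the MYC start (-0.03) and most of the others lie near 0. The region just past the gene end, at 0.53, was not called.

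The same part of chromosome 8 held the 5 tallest regions that had a peak in every silenced library and in no control library. Tested regions there had a median height of 16.4, against 10.2 over all regions. By number, chromosome 8 held 95 of the 1600 such silenced-only regions and 43 of the 798 seen in control libraries only. It held 2530 of the 45090 regions tested. Inside the non-coding gene PVT1, chr8:128032773-128033252 was listed with heights of 62, 121 and 66 in silenced libraries and not listed in control libraries. The local background behind these peaks was 13.1, 16.7 and 16.3 height units. At the deposited threshold a peak there needed a height of roughly 23, 28 and 27 to be listed in the respective silenced library. A missing peak is therefore no height of 0. A second PVT1 region, chr8:127991475-127992037, had heights of 29, 26 and 24, and a region 82.2 kb from POU5F1B, chr8:127499391-127499792, had 27, 26 and 19. The next 2 lay in SAMD12, with heights of 26, 24 and 17 and of 18, 28 and 20.

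SAMD12, a sterile alpha motif gene farther up the chromosome, also held or neighboured a pair of called regions. The one in the gene body, chr8:118227314-118228111, had heights of 17, 19 and 15 in control and 34, 50 and 44 in silenced libraries (log2 1.27 ± 0.23 SE, adjusted p = 0.0031). The other, chr8:118122067-118123139, lies 8.69 kb outside the annotated gene and had 14, 8 and 9 against 32, 28 and 27 (log2 1.48 ± 0.28 SE, adjusted p = 0.0049). Only 13.0 kb from it, in EXT1, which encodes a heparan sulfate polymerase, chr8:118108838-118109109 was listed in control libraries alone with heights of 26, 20 and 20. It was the tallest of the regions present in control libraries only. The other called regions of chromosome 8 had MTSS1, GSDMC, ASAP1 and NDRG1 as the nearest genes, with log2 differences of 1.09, 1.44, 1.61 and 1.37.

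On chromosome 18 calls of both directions lay close together. In DLGAP1, which encodes a postsynaptic scaffold protein, chr18:3679202-3679704 had heights of 54, 47 and 43 in control and 97, 111 and 84 in silenced libraries (1.95-fold higher; log2 0.97 ± 0.18 SE, adjusted p = 0.0024; log2 0.54 with fold enrichment). A distal region 295 kb away, 28.1 kb from the start of TGIF1, a homeobox repressor of TGF-beta signalling, went the other way. Its heights were 56, 57 and 51 in control and 29, 25 and 39 in silenced libraries (chr18:3383340-3383953; log2 -0.89 ± 0.20 SE, adjusted p = 0.0354). Beside it, chr18:3384713-3385134 was listed in control libraries alone, with heights of 22, 23 and 19. MYOM1, a gene of the sarcomeric M-band, held another lower region, chr18:3217896-3218314, with heights of 56, 43 and 48 against 21, 29 and 31 (log2 -0.92 ± 0.21 SE, adjusted p = 0.0366). The MYOM1 call was lost with any 1 library left out. ENOSF1, an enolase superfamily gene, held a higher region, chr18:702801-703841, with heights of 15, 19 and 14 against 31, 49 and 46 (log2 1.33 ± 0.24 SE, adjusted p = 0.0024). The first 5 Mb of the chromosome, a segment picked after the calls were seen, held 185 tested regions. Of these, 2 were called higher and 2 lower (2.16%, against 0.0976% of all regions). They were tall, with a median height of 19 against 10.2 over all regions, and their median standard error was 0.28 against 0.36. Their median log2 difference was -0.01, against -0.04 over all regions. How far taller peaks and smaller errors raised the number called was not tested.

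Of the 7 lower regions, the one with the smallest p lay 17.0 kb from the start of ARF6, a small GTPase of membrane traffic. At chr14:49875649-49876118 the heights were 30, 25 and 17 in control and 8, 7 and 10 in silenced libraries (log2 -1.55 ± 0.31 SE, adjusted p = 0.0084). In HHAT, the acyltransferase that modifies Hedgehog ligands, chr1:210373210-210374679 had 65, 28 and 37 against 15, 19 and 28 (log2 -1.08 ± 0.24 SE, adjusted p = 0.0335; log2 -0.49 with fold enrichment). Control replicate 2 and silenced replicate 3 both stood at 28 there and were separated only by the scaling. In GYPC, a membrane glycoprotein gene, chr2:126657378-126658426 lies 1.22 kb from the start and had 25, 17 and 28 against 10, 10 and 8 (log2 -1.35 ± 0.30 SE, adjusted p = 0.0354). A region 605 kb from the start of DNAH5, an axonemal dynein gene, had 13, 18 and 26 against 4, 7 and 9. The next region in line, 8.28 kb from DNAL4, fell just outside the threshold with 25, 15 and 17 against 9, 7 and 6 (log2 -1.41 ± 0.34 SE, adjusted p = 0.0567).

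The remaining higher regions had log2 differences of 0.90 to 2.07. In the gene bodies of PLD5, FAM53B and CERS6, a ceramide synthase gene, control heights of 3 to 5 stood against silenced heights of 11 to 18. GPR15LG, which encodes a ligand of the receptor GPR15, had the tallest of this set in control libraries, with 30, 34 and 30 against 47, 74 and 63 (log2 0.90 ± 0.20 SE, adjusted p = 0.0335; log2 0.29 with fold enrichment). A region 18.2 kb from RHCG, an ammonium transporter, had 26, 26 and 10 against 46, 42 and 39. One 32.9 kb from FAT2, a protocadherin, had 12, 12 and 14 against 26, 42 and 24. One 20.2 kb from ITGB6, an integrin subunit, had 9, 8 and 7 against 17, 30 and 19. The calls in CERS6 and near ITGB6 were lost with any 1 library left out. That in GPR15LG was kept in only 1 of these fits, the one without silenced replicate 1. Of all 37 higher regions, 19 lay over 50 kb from the nearest protein-coding start, or on chromosome 8 from the nearest gene end, and the median of these distances was 52.7 kb.

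**Figure D3:**
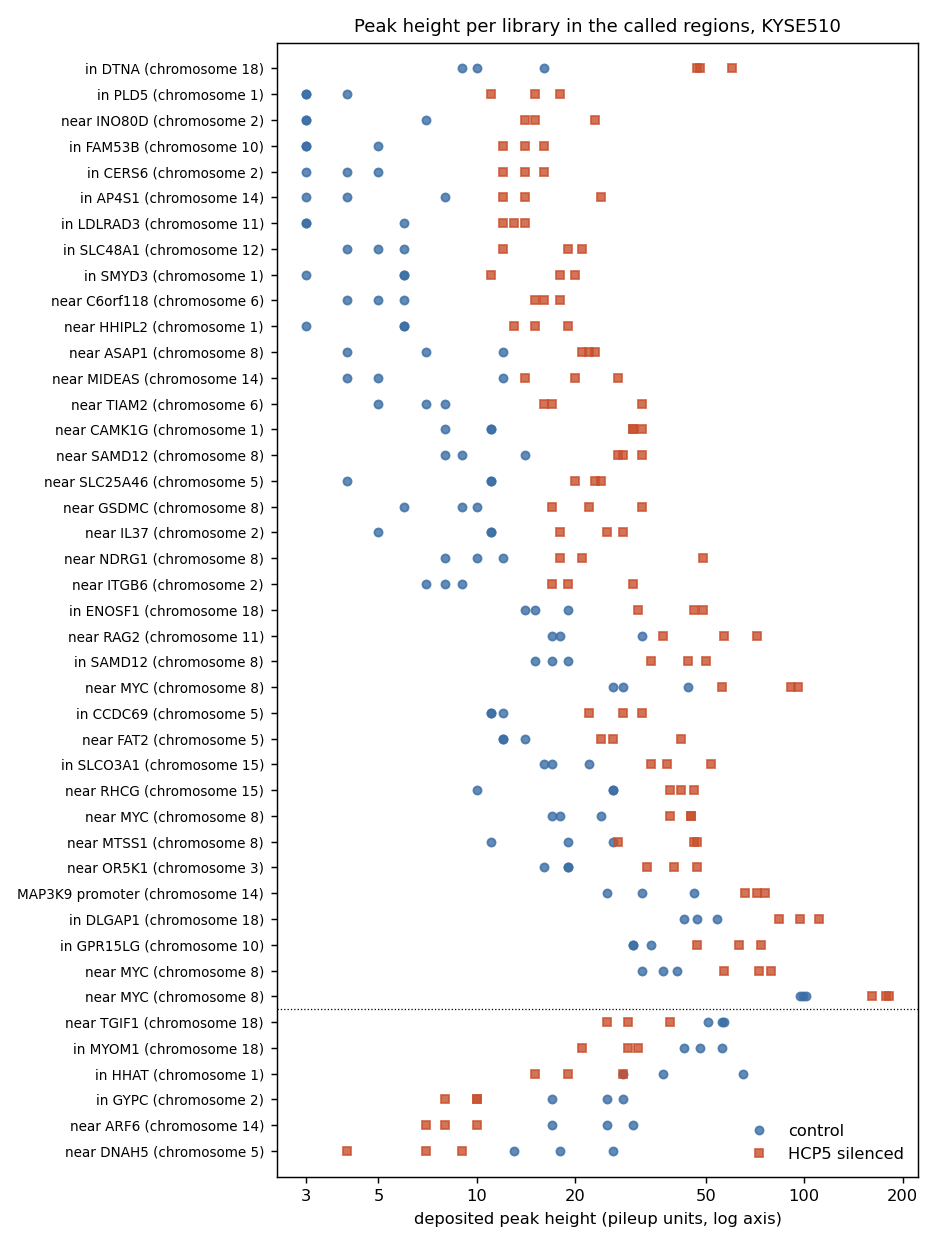
Deposited peak heights on a log axis for the called regions except 1 that is not reported here, with 1 point for each library, circles for control and squares for HCP5-silenced. Names give the protein-coding gene that holds the region or, after the word near, the one with the nearest start (on chromosome 8, the nearest gene end). Regions above the dotted line were higher after silencing and those below it lower; in HHAT the groups share a height of 28.

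Of the 251400 merged regions, 1600 had peaks in all silenced libraries and in no control library, and 798 the reverse. Silenced libraries also had more peaks on average, 113549 against 108260, although the groups overlapped. The part of peak number in the 2 counts was not tested. These one-sided regions were low, with a median height of 4 on both sides. Promoter regions made up 3.19% of those seen after silencing only and 8.52% of those seen in control only, against 7.99% of all merged regions. The 5 tallest of the control-only regions lay in EXT1, near TGIF1, in MAP3K9, in TSHZ3 (22, 14 and 18) and in RGS20 (26, 14 and 14). TSHZ3 is a zinc finger homeobox gene and RGS20 a regulator of G-protein signalling. These counts depend on the height needed: at a height of at least 5 they were 1091 and 465. Leaving out a library, which loosens the requirement, gave 2634 to 4501 and 1591 to 2757.

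By class, the mean height of promoter regions was lower in silenced than in control libraries, by an amount within the spread between libraries. The mean log2 scaled height of the 9683 promoter regions was 0.61, 0.39 and 0.55 in control libraries and 0.45, 0.36 and 0.38 in silenced libraries. Control replicate 2 lay among the silenced libraries, so the groups overlapped. The means were 0.51 ± 0.12 and 0.39 ± 0.05 (SD, n = 3; two-sided exact permutation p = 0.2, with 0.1 the smallest possible, and 0.6 after adjustment over the 3 classes). Gene body regions differed by 0.02 and distal regions by 0.01 (exact permutation p = 0.7 each, n = 3). Of single promoter regions 32.7% had a log2 difference above 0, against 45.9% of all regions, and the medians were -0.13 and -0.04. At an unadjusted p under 0.05, 99 promoter regions were higher and 504 lower, while gene bodies had 865 and 652 and distal regions 970 and 712. Promoter regions made up 13.0 ± 0.555% of the regions of control libraries and 12.4 ± 0.709% of those of silenced libraries (SD, n = 3; exact permutation p = 0.3, adjusted 0.6). The peak number of 108260 ± 6511 in control and 113549 ± 7170 in silenced libraries differed by less than the spread (SD, n = 3; exact permutation p = 0.4, adjusted 0.6).

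**Figure D4:**
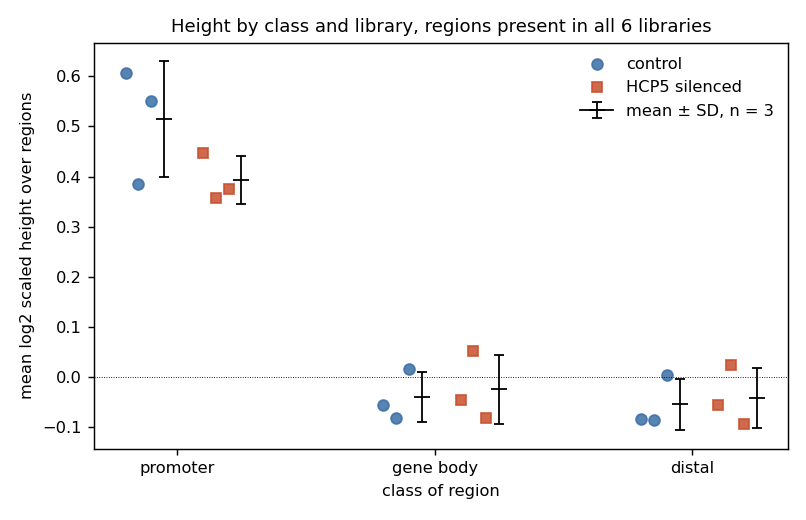
Mean log2 scaled height of promoter, gene body and distal regions in each library, circles for control and squares for HCP5-silenced, with group means and SD beside them (n = 3). Promoter values are 0.61, 0.39 and 0.55 in control and 0.45, 0.36 and 0.38 in silenced libraries, and in all 3 classes the groups overlap.

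Summed over the promoter and gene body regions of each gene, where a missing peak counts as 0, no gene passed the test. Of 12168 protein-coding genes tested, 0 were called (0.0%; limma, smallest adjusted p = 0.126). At an unadjusted p under 0.05, 329 were higher (2.7%) and 491 lower (4.04%), and the median log2 difference was -0.04. GYPC had the smallest p, with sums of 2.82, 2.8 and 3.11 in control and 1, 1 and 0.727 in silenced libraries (log2 -1.28 ± 0.23 SE). Its 6 regions include the called one. Next on the lower side were MAPK15, an atypical MAP kinase gene (-1.49), BRI3BP (-1.19), the collagen gene COL9A3 (-0.70), SMAD7, an inhibitor of TGF-beta signalling (-1.05), GLDN (-0.94), RRP12 (-1.01) and ASIC4 (-1.03). RNF31 and PSME2 shared a single region and therefore the same value, -0.63. On the higher side SUN2, a protein of the nuclear envelope, had sums of 0.364, 0.8 and 0 in control and 1.9, 2.3 and 1.64 in silenced libraries (log2 1.56 ± 0.32 SE, adjusted p = 0.365). It was followed by IQCM (0.76), the carboxylesterase gene CES1 (0.94), SMOC1 (0.55), the phosphatase gene PTPRB (0.91), GPR15LG (0.72), LGI3 (1.15), the urate transporter gene SLC2A9 (0.58), TMEM52B (1.12) and TLL1 (0.57). In each of these 20 genes the groups did not overlap, which held for 4.2% of tested genes with silenced above and 7.18% with silenced below.

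Of the MYC network, 10 of 13 genes were tested, 5 lay above 0 and the median was -0.02. MYC itself had sums of 23.6, 21.6 and 27.3 in control and 24, 29.1 and 23 in silenced libraries (log2 0.07 ± 0.12 SE, adjusted p = 0.941). Its sum takes in the start region, the region past the gene end and a gene body region, chr8:127737705-127738009. That gene body peak was listed in control replicates 2 and 3 (52 and 42) and silenced replicate 2 (54), and counted as 0 elsewhere. MXD3 and MXD4, which compete with MYC for its partner MAX, had -0.31 and -0.33. Among 17 tested MYC target genes 7 lay above 0, with a median of -0.05. LDHA, lactate dehydrogenase A, had 6.36, 4.4 and 6 against 2.8, 3.5 and 4.64 (log2 -0.56 ± 0.19 SE, adjusted p = 0.643), and SRM, spermidine synthase, had -0.37. None of the members of any list was called, and lists are described here only by counts and medians.

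Apoptosis regulators had 13 of 34 tested genes above 0 and a median of -0.06. BMF, a pro-apoptotic BH3-only protein, had sums of 7.55, 6.8 and 5.44 in control and 3.8, 3.4 and 5.36 in silenced libraries, where the groups nearly met (log2 -0.61 ± 0.18 SE, adjusted p = 0.625). TNFSF10, the death ligand TRAIL, had 3.64, 3.4 and 4.11 against 6.9, 5 and 4.91 (log2 0.52 ± 0.18 SE, adjusted p = 0.643). Of the small subunit processome and related ribosome assembly genes, the group UTP3 belongs to, 9 of 33 lay above 0 and the median was -0.15. UTP3 had 0.23, RRP12 -1.01 and the helicase gene DDX52 -0.64. Over all genes 42.1% lay above 0.

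Squamous transcription factors had 8 of 16 genes above 0 and a median of -0.02, with 0.34 for KLF5 and -0.23 for EHF. The AP-1 family had 3 of 14 above 0 and a median of -0.10, with -0.41 for FOSL2 and -0.32 for MAFK. Cell cycle regulators had 9 of 28 above 0 and a median of -0.14. E2F1, a driver of S-phase genes, had 3.45, 3.7 and 3.44 in control and 2.4, 1.8 and 2.64 in silenced libraries (log2 -0.55 ± 0.20 SE, adjusted p = 0.655), and CCND1, cyclin D1, had -0.36. NRF2 targets had 2 of 14 above 0 and a median of -0.14, with -0.57 for GCLC, of glutathione synthesis, and -0.44 for TALDO1. Interferon-stimulated genes had 7 of 21 above 0 and a median of -0.07, and held opposite extremes in OAS2 (0.88) and IRF7 (-0.81). Epithelial-mesenchymal genes had 4 of 18 above 0 and a median of -0.07, with -0.76 for fibronectin, FN1, and -0.57 for CLDN4. The median over all tested genes was -0.04.

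**Figure D5:**
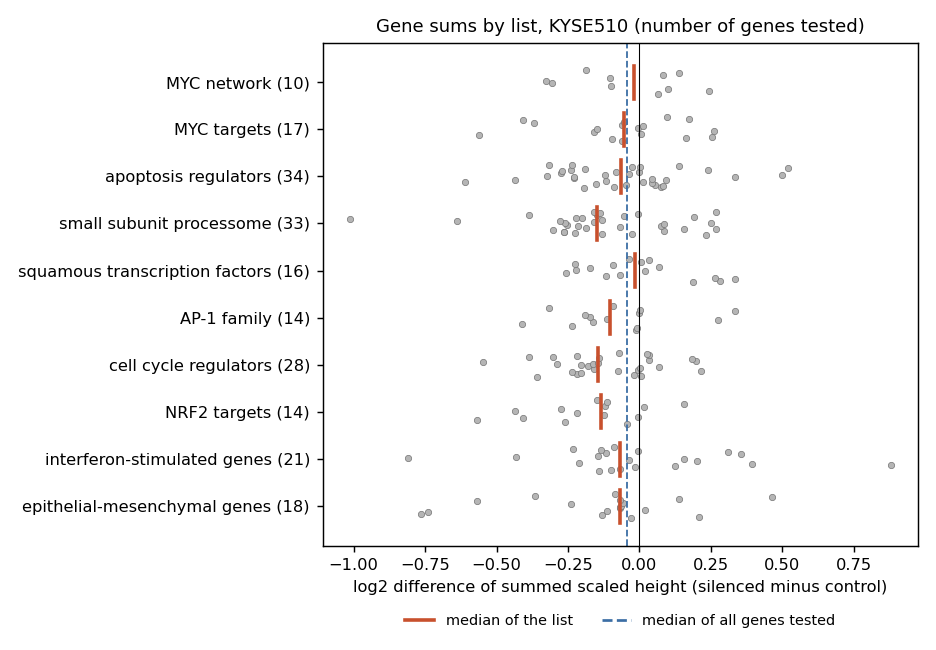
Each point is the log2 difference, silenced minus control, of a gene's summed scaled height, for the tested members of 10 gene lists. Solid bars are list medians, from -0.15 for the small subunit processome to -0.02 for squamous transcription factors, and the dashed line is the median of all tested genes, -0.04; no gene shown was called.

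Averaged over windows of 5 Mb, 1 of 547 windows was called higher (0.183%) and 0 lower. It spans 130 to 135 Mb of chromosome 4, a gene-poor stretch around PCDH10 and PABPC4L, and rests on 15 regions. Their mean log2 scaled height was -0.65, -0.61 and -0.69 in control and -0.33, -0.35 and -0.40 in silenced libraries (difference 0.29 ± 0.07 SE, limma adjusted p = 0.0315). The fit gave this same standard error to all 547 windows, which held 11 to 229 regions (median 78). It is therefore not the spread of this window alone. The groups did not overlap and 11 of the 15 regions lay above 0, but none of the 15 was called by itself (adjusted p of 0.335 or more). Among other settings, the call was lost with windows of 2 or 10 Mb, without scaling and without control replicate 1 or any one silenced library. The window at 110 to 115 Mb of chromosome 8 came next, with -0.72, -0.32 and -0.18 against -0.06, -0.17 and -0.20 (adjusted p = 0.0833), and there the groups overlapped.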

How the data were processed

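ATAC-seq peak tables of 6 KYSE510 libraries were used (3 control, 3 HCP5-silenced, grouped by the treatment label). The submitters' processing notes name Trimmomatic 0.36, Bowtie2 2.2.6, Picard 2.8.2, MACS2 2.1.1, bedtools 2.25.0 and GRCh38, without their roles. Per the file headers, the deposited pileup is a signal, the whole-number height of each peak, and is not a read count. Per the file headers, the deposited fold enrichment is a ratio to local background, and the authors also give a p-value and FDR for each peak. The largest deposited p-value was 0.00987. Depth is unknown, so no counting interval was computed.

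Peaks of height 3 or more on chromosomes 1 to 22 were merged (1 bp overlap). The largest height per region and library was divided by the library's median over regions present in all 6. Promoter regions lay within 1 kb of a protein-coding start in the RefSeq table for GRCh38.p14 (of either gene end where no strand was listed), gene body regions overlapped a gene, and the rest were distal. Of 19122 protein-coding genes 15100 had a listed start. A non-coding gene such as HCP5 defines no promoter class. Log2 heights of regions and log2(sum + 0.5) of genes with a mean sum of at least 1 were tested with limma 3.58.1 (R 4.3.3, variance trend), and means of 5 Mb windows with at least 10 regions with limma without trend. The limma p-values were Benjamini-Hochberg adjusted over all features tested, except where a count is given as unadjusted. Exact permutation tests used 20 relabellings and were adjusted over the library summaries or the classes. Adjusted p-values, calls (under 0.05) and standard errors are limma's throughout. Gene fold changes are on the log2(sum + 0.5) scale, which understates changes of low sums. The fits were run on simulated data with normal noise whose variance followed mean height alone. Such data cannot decide between the variance models.

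The rule named the 8 regions and 10 genes with the smallest p in each direction, the 5 tallest one-sided regions on each side, MYC, the genes of the HCP5 axis and 2 members of each list. DTNA, MAP3K9, regions within 1 Mb of MYC and the other called regions were named after their values were seen. One called region is counted but not reported by name here. Members and lists were chosen with earlier results of these data known. Alternatives covered scaling, thresholds, merging, the variance model, the replicate block and leaving out each library. Python 3.11.15 was used with numpy 2.4.6, pandas 2.3.3, scipy 1.17.1 and matplotlib 3.10.9.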

Additional observations from a re-analysis of the deposited data

Results flagged for a closer look

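Chromosome X lay outside the comparison. Its peaks of height 3 or more, as a percentage of the peaks on chromosomes 1 to 22, were 2.58, 2.54 and 2.61 in control libraries and 2.65, 2.66 and 2.64 in silenced libraries. The means were 2.58 ± 0.0346 and 2.65 ± 0.0111 (SD, n = 3; exact permutation p = 0.1, two-sided, which is the lowest that 3 against 3 can give), and this value drew attention because every silenced library lay above every control library. Peaks on other sequences, neither chromosomes 1 to 22 nor X or Y, went the opposite way without overlap, at 0.0864, 0.0939 and 0.0926% in control and 0.0737, 0.0766 and 0.0817% in silenced libraries (exact permutation p = 0.1, n = 3).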

How the results depend on the processing

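Counts of called regions, higher and lower, were 13 and 0 without scaling, 32 and 1 with quantile normalisation, 140 and 1 scaled to promoter regions, 64 and 8 at an FDR of at most 0.05, 33 and 17 over regions in at least 3 libraries (11 of the 44 among them), 2 and 0 with fold enrichment, 31 and 2 with rank scores, and 0 and 0 without a variance trend. In the fits over regions in at least 3 libraries, an absent peak was set to a height of 2. Leaving out 1 library gave 1 to 35 higher and 0 to 6 lower. With the replicate number as a block there were 95 and 28, among them all 44 regions. After each group mean was subtracted region by region, control and silenced libraries with the same number correlated at 0.139, 0.0711 and 0.0489. The other pairs correlated at -0.0914 to 0.0225, and each library correlated best with the one of its own number. Whether libraries of the same number were prepared as pairs was not tested. Geometric-mean scaling, chosen after seeing the data, gave 53 and 7. Genes stayed at 0 in every alternative. The called window was lost (0) with 10 Mb and 2 Mb windows, without scaling, with quantile or geometric-mean scaling, over regions in at least 3 libraries and under the block, and leaving out 1 library gave 0 to 2. Regions in control only numbered 465 at a height of at least 5. Leaving out 1 library gave 1591 to 2757 for control only and 2634 to 4501 for silenced only.

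Some uncalled differences near 0 changed sign. The MYC promoter was at 0.018 without scaling, 0.15 scaled to promoters, 0.013 at a height of at least 5, 0.014 at an FDR of at most 0.05, 0.00107 with rank scores and -0.18 to 0.10 leaving out 1 library. The HCP5 region ranged from -0.023 to 0.65 leaving out 1 library. The upstream MAP3K9 promoter was at 0.015 scaled to promoters and 0.028 with fold enrichment, and the MAP3K9 region at 70754888 was at 0.026 scaled to promoters and -0.40 to 0.17 leaving out 1 library. The MYC gene sum was -0.032 with the largest height and -0.035 to 0.16 leaving out 1 library, SMOC1 was -0.051 with the largest height and -0.094 over regions in all 6 libraries, and EHF was 0.34 over promoter regions. The cause was not tested for any of these. Unknown depth and whole-number heights limit the low regions most.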
